A study of Homo sapiens with 42 samples.

Results

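The genes described here are 10 smooth muscle contractile genes: ACTA2, ACTG2, TAGLN, CNN1, MYH11, MYL9, TPM1, TPM2, LMOD1 and CALD1. Fibroblasts raise several of these when they become myofibroblasts. The genes were taken by name and are 10 of the 28266 gene symbols in the count table. The 42 libraries, in 12 groups, were made from poly(A) RNA of IMR90 cells, a line of human lung fibroblasts. IMR90 ER:RAS cells carry a retroviral fusion of RAS to the oestrogen receptor, which 4-hydroxytamoxifen (4OHT) switches on, so that the cells undergo oncogene-induced senescence (OIS). These cells were given DMSO or 100 nM 4OHT, with 3 libraries for each treatment and shRNA. IMR90 cells without the fusion were given DMSO or bleomycin, a DNA-damaging drug, at 50 µg/ml for 24 h, with 4 libraries for each treatment and shRNA. All cells, the controls included, carried a doxycycline-inducible shRNA (a control or 1 of 2 against COPB2, which encodes part of the COPI vesicle coat). Doxycycline was added at 1 µg/ml after 7 days, and RNA was collected 72 h later, at day 10. The labels give both lines the genotype WT. The labels do not say whether replicates were separate cultures. The study's supplement calls the replicates of these data independent experiments, but counts fewer of them after bleomycin than there are libraries here.

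Smooth muscle contracts when myosin pulls on filaments of the actins ACTA2 and ACTG2. Tropomyosins (TPM1, TPM2) lie along the filament, calponin (CNN1), transgelin (TAGLN) and caldesmon (CALD1) bind it, leiomodin (LMOD1) starts new filaments, and the light chain MYL9 is phosphorylated to set the motor MYH11 in motion. Serum response factor (SRF), with the cofactors MYOCD, MRTFA and MRTFB, binds CArG boxes near many of these genes, and TGF-beta raises several of them in fibroblasts, where ACTA2 is the usual marker of the myofibroblast. TAGLN, MYL9, TPM1, TPM2 and CALD1 are also made by many cells that are not muscle.

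Libraries held 13148194 to 23597310 counts. Levels are given in CPM, a gene's counts relative to the TMM-scaled library size, as mean ± SD. The 10 listed fibroblast markers all exceeded 1 CPM in the median library, with a summed level of 8240 to 27866 CPM. Of 10 smooth muscle markers, 7 exceeded 1 CPM in the median library, with a summed level of 154 to 775 CPM. MYH11, LMOD1, ACTG2 and CNN1 are among these markers and also among the contractile genes, so the 2 lists are not independent. KCNMB1, PLN and CASQ2 never reached 1 CPM, so the cells did not carry the full smooth muscle programme. All 6 pericyte markers exceeded 1 CPM in the median library, with a summed level of 110 to 363 CPM. Skeletal muscle markers summed to 0 to 1.69 CPM and epithelial ones to 0.118 to 1.87 CPM. In bulk RNA, fewer cells that express a gene and less of its RNA per cell cannot be told apart. COPB2 was at 340, 479, 361 and 451 CPM with the control shRNA (DMSO and 4OHT in ER:RAS cells, then DMSO and bleomycin in IMR90 cells) and at 45.7 to 113 CPM with either COPB2 shRNA.

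The stretch before an annotated start of 4 of these genes is printed because SRF acts through CArG boxes: ACTG2, ACTA2 and LMOD1 show windows with matches and TPM1 a window without. RefSeq (GRCh38.p14) gave a promoter window, from 250 bases before to 50 bases after the start, for 7 of the 10 genes (12 windows). TAGLN, MYH11 and MYL9 had no entry. The 200 bases before the start follow, with CArG boxes, or 10-base runs with 1 letter off a CArG box, in capitals. They lie at chr2:73892808-73893007 (ACTG2, plus strand), chr10:88952774-88952973 (ACTA2, minus strand), chr1:201946549-201946748 (LMOD1, minus strand) and chr15:63048289-63048488 (TPM1, plus strand). Those of ACTA2 and TPM1 precede a start inside the gene's annotated span, not its outermost start.
ACTG2: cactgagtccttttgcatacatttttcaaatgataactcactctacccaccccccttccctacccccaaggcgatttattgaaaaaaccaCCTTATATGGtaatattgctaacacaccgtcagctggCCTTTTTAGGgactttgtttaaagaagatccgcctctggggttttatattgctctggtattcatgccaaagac
ACTA2: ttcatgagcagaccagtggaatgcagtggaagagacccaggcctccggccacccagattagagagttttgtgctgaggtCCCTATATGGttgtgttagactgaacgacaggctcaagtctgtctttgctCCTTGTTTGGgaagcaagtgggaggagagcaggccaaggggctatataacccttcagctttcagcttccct
LMOD1: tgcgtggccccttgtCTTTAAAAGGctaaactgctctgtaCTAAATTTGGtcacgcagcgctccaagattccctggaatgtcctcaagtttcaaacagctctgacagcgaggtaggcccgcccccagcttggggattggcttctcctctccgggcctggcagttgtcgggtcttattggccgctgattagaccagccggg
TPM1: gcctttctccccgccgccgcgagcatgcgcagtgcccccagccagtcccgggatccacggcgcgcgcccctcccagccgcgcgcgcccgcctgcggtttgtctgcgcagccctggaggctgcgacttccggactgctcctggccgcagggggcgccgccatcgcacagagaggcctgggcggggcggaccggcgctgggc

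Exact CArG boxes were found on either strand in 454 of 35116 promoter windows (1.29%), and a box or a run 1 letter off in 6624 (18.9%). Among the contractile genes a box or a run 1 letter off was found in 5 of 12 windows, of 4 of 7 genes: ACTG2, ACTA2, LMOD1 and CALD1. Of these windows, only that of ACTG2 held exact boxes, a pair at -110 to -101 and -73 to -64 from the start. ACTA2 had runs 1 letter off at -121 to -112 and -71 to -62, and LMOD1 at -185 to -176 and -160 to -151. CALD1 had a run 1 letter off in 2 of its 4 windows, at -26 to -17 and -244 to -235. The second window of ACTA2 and the windows of CNN1, TPM1 and TPM2 held none, which says only that these letters are not in these windows. A match is a run of letters, and binding was not measured.

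In DMSO-treated ER:RAS cells with the control shRNA, the levels per kilobase of the MANE transcript spanned a wide range. TPM2 was the most abundant at 2194 CPM per kb, then MYL9 at 631, TPM1 at 424, ACTA2 at 384, TAGLN at 351 and ACTG2 at 230 CPM per kb. CALD1 was at 96.4, CNN1 at 70.5 and LMOD1 at 20.3 CPM per kb, and MYH11, the smooth muscle myosin heavy chain, was at only 0.350. Which transcript was read was not determined, and the MANE transcripts of TAGLN and MYL9 are longer than their other annotated forms, which lowers their values per kb. Over the 12 groups, the ranges of groups that are neighbours in the order of mean CPM overlapped for every gene, except at the step to the 3 4OHT groups for LMOD1 and MYH11 and between the IMR90 DMSO groups with COPB2 shRNA 2 and shRNA 1 for MYH11. The order of the means differed between genes, as the plot of levels by library shows. ACTG2, TAGLN, CNN1, MYH11, LMOD1 and CALD1 had their 3 lowest means in the 3 4OHT groups, whereas TPM1 had its 3 highest means there.

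The first comparison was OIS against DMSO in ER:RAS cells with the control shRNA. In cells undergoing OIS, 6 of the 10 genes fell: both smooth muscle actins, TAGLN, CNN1, MYH11 and LMOD1. For each of them every 4OHT library lay under every DMSO library. MYL9, TPM1, TPM2 and CALD1 were not called. The test was edgeR's quasi-likelihood test with Benjamini-Hochberg adjustment over 14297 genes, and calls were made below 0.05 after adjustment. Of all genes tested, 35.7% were called in either direction, 20.2% were called lower, and 20.7% had every library lower without overlap. The median log2 fold change of the 10 genes was -1.98, against -0.0789 over all genes tested. Scaling by DESeq2 size factors moved the latter to 0.0448. Markers of cell types moved in the same comparison. Of 10 fibroblast markers 7 fell and 1 rose (median log2 fold change -1.44), with a summed level of 18329 to 25363 CPM with DMSO and 15110 to 24545 CPM with 4OHT. The marker that rose was VIM, from 6728 to 15416 CPM. It made up most of the sum with 4OHT, so the sum does not show the falls of the other markers. Of 6 pericyte markers 2 rose and 2 fell, with a summed level of 110 to 212 CPM with DMSO and 241 to 363 CPM with 4OHT. The 1 cardiac muscle marker tested fell, with a summed level of 2.90 to 7.26 CPM and then 0 CPM. Of 2 leukocyte markers tested 1 rose, with a summed level of 17.2 to 40.2 CPM and then 110 to 121 CPM. Of 6 endothelial markers, 5 were tested, of which 4 rose and 1 fell, and KDR never reached 1 CPM, with a summed level of 16.2 to 18.1 CPM and then 51.9 to 87.6 CPM. The part of these changes in the contractile genes was not tested.

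LMOD1, which starts new actin filaments, showed the widest gap of the 10. Its level was 70.3, 102 and 66.0 CPM in the DMSO libraries and 0.902, 1.06 and 1.14 CPM in the 4OHT libraries. The highest 4OHT library thus lay far below the lowest DMSO library. The log2 fold change was -6.33 (SE 0.27, edgeR adjusted p = 3.2e-10), an 80.6-fold lower level.

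Both smooth muscle actins fell, ACTG2 by more than ACTA2. ACTG2, gamma enteric actin, was at 279, 427 and 329 CPM with DMSO and at 84.4, 50.2 and 29 CPM with 4OHT. The 4OHT libraries themselves spread widely, all below the DMSO libraries. Its log2 fold change was -2.78 (SE 0.38, edgeR adjusted p = 3.98e-05). ACTA2, alpha smooth muscle actin and the common myofibroblast marker, was at 431, 639 and 482 CPM with DMSO and at 324, 254 and 156 CPM with 4OHT. The gap between the groups was small for this gene, and ACTA2 had the smallest change among the 6 called genes, at -1.19 (SE 0.27, edgeR adjusted p = 0.00262), or 2.27-fold lower. ACTA2 RNA was still at 245 ± 84.5 CPM (SD, n = 3) in cells undergoing OIS.

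Of the proteins that bind the filament, CNN1 and TAGLN fell. CNN1 was at 87.8, 128 and 101 CPM with DMSO and at 15.2, 11.9 and 6.14 CPM with 4OHT. TAGLN was at 1047, 1569 and 1374 CPM with DMSO and at 280, 140 and 74.9 CPM with 4OHT. In both genes the 3 4OHT libraries stood in the same order. That order was also seen for ACTA2, ACTG2, MYH11, MYL9, TPM1 and TPM2, and was reversed for LMOD1 and CALD1. The log2 fold changes were -3.37 (SE 0.33, adjusted p = 1.46e-06, 10.3-fold lower) for CNN1 and -3.13 (SE 0.44, adjusted p = 5.11e-05, 8.78-fold lower) for TAGLN. CALD1 was spread too widely for a call, at 457, 209 and 783 CPM with DMSO and 137, 302 and 359 CPM with 4OHT. These groups overlapped, with a log2 fold change of -0.97 (95% interval -2.36 to 0.42, adjusted p = 0.280). CALD1 levels moved with a property of the libraries: the slope of gene counts on GC content was 0.041, 0.651 and -0.251 log2 units per 10 points of GC in the 3 DMSO libraries, and the library with the steepest positive slope had the lowest CALD1. With a correction for GC content and transcript length, chosen after seeing the data, CALD1 was still not called (edgeR adjusted p = 0.0524). The part of the GC trend in the spread of CALD1 was not tested.

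MYH11 was barely expressed in any group. DMSO libraries held 33, 54 and 44 counts (1.68, 3.42 and 2.12 CPM) and 4OHT libraries 4, 2 and 0 counts. All 3 were lower than any DMSO library (log2 fold change -4.04, SE 0.71, adjusted p = 0.000539), although at so few counts the fitted size rests on the prior count. MYL9 was at 1453, 2260 and 1558 CPM with DMSO and at 3093, 1932 and 1021 CPM with 4OHT. The 4OHT libraries of this light chain lay on both sides of the DMSO ones, and the log2 fold change was 0.09 (95% interval -0.72 to 0.89, adjusted p = 0.893). It was -0.29 without replicate 1 of the 4OHT libraries.

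Neither tropomyosin was called in OIS. TPM1 was at 471, 470 and 606 CPM with DMSO and at 859, 716 and 573 CPM with 4OHT. Its highest DMSO library lay above its lowest 4OHT library, and the log2 fold change was 0.36 (95% interval -0.07 to 0.79, adjusted p = 0.192). TPM2 was at 2014, 2940 and 2879 CPM with DMSO and at 6563, 2041 and 1270 CPM with 4OHT. The mean with 4OHT came from replicate 1 alone, without which the log2 fold change of 0.20 (95% interval -0.86 to 1.27) became -0.70. That library also had the steepest GC slope of its group (0.651 log2 units per 10 points, against 0.084 and -0.223). A correction for GC content and transcript length, chosen after seeing the data, gave TPM2 a log2 fold change of -0.36. The part of the slope in the TPM2 level was not tested. The summed level of the 10 genes was 7747 ± 1275 CPM with DMSO and 6765 ± 4095 CPM with 4OHT (SD, n = 3 each), since TPM2 and MYL9 made up most of it.

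**Figure D1:**
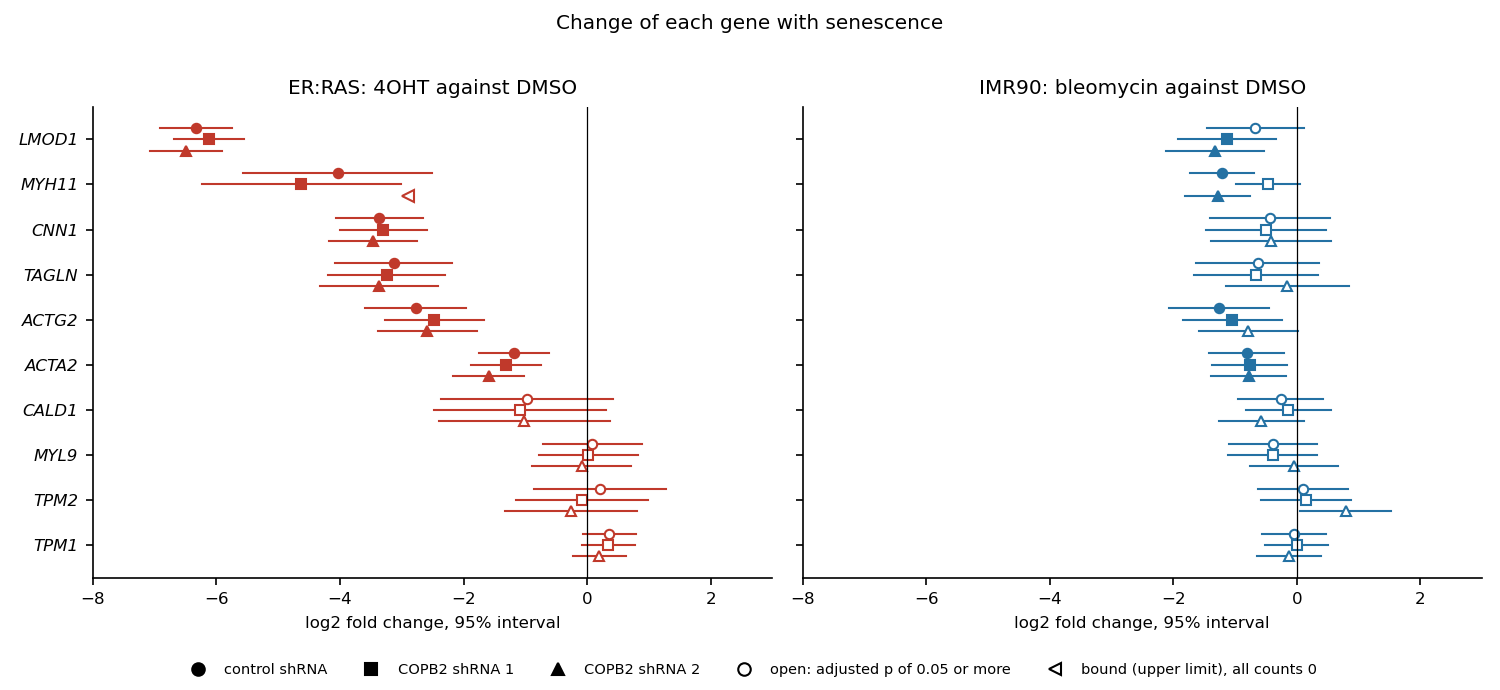
Log2 fold change of each gene against DMSO with the control shRNA, in OIS and after bleomycin (points, with 95% intervals of the edgeR fit). LMOD1 is at -6.33 in OIS and -0.67 after bleomycin, and the intervals of MYL9, TPM1, TPM2 and CALD1 include 0 in both models.

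The next comparison was bleomycin-induced senescence against DMSO in IMR90 cells with the control shRNA. Here 3 of the 10 genes fell, ACTA2, ACTG2 and MYH11, a share of calls near that of all genes (31.2%). Of the 14783 genes tested, 31.2% were called in either direction, 15.8% were called lower and 13.9% had every library lower without overlap. ACTG2 and MYH11 had every bleomycin library lower, and the ACTA2 groups overlapped. The median log2 fold change of the 10 genes was -0.53, against -0.0136 over all genes tested. Of the 10 fibroblast markers 8 fell (median -1.18), with a summed level of 22120 to 27866 CPM with DMSO and 11984 to 21101 CPM after bleomycin. Of 4 endothelial markers tested 2 rose and 1 fell, with summed levels that overlapped (23.9 to 36.1 CPM and 9.08 to 34.7 CPM). Of 6 pericyte markers 1 rose, with a summed level of 161 to 247 CPM and then 212 to 242 CPM. The 1 cardiac muscle marker tested fell, with a summed level of 4.26 to 7.29 CPM and then 0.881 to 2.64 CPM. Of 3 leukocyte markers tested 2 rose, with a summed level of 13.4 to 29.5 CPM and then 59.1 to 98.8 CPM. The part of these changes in the contractile genes was not tested.

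MYH11 had the smallest p-value, and its call held in each of 18 alternatives. It was at 4.49, 5.37, 4.21 and 4.79 CPM with DMSO and at 1.39, 2.46, 1.90 and 2.59 CPM after bleomycin. The 4 bleomycin libraries all lay well under the DMSO libraries, with a log2 fold change of -1.21 (SE 0.25, edgeR adjusted p = 0.000786). ACTG2 was at 356, 155, 186 and 202 CPM with DMSO and at 86.1, 149, 83.8 and 63.6 CPM after bleomycin. The highest bleomycin library, replicate 2, came close to the lowest DMSO library. Its log2 fold change was -1.26 (SE 0.39, edgeR adjusted p = 0.0168), and the adjusted p-value rose to 0.0820 without DMSO replicate 1, to 0.0578 without bleomycin replicate 1 and to 0.0685 without bleomycin replicate 4.

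ACTA2 was at 631, 284, 358 and 349 CPM with DMSO and at 203, 351, 190 and 198 CPM after bleomycin. Only bleomycin replicate 2 reached into the DMSO range. The log2 fold change was -0.81 (SE 0.29, edgeR adjusted p = 0.0386). This call was lost in 9 of 18 alternatives, with adjusted p-values of up to 0.209 (without DMSO replicate 1). It was also lost without DMSO replicate 3 (0.0642) and without bleomycin replicate 1 (0.126), 3 (0.111) or 4 (0.125).

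LMOD1, TAGLN and CNN1, which with MYH11 fell by the largest amounts in OIS, were not called after bleomycin. LMOD1 was at 101, 88.2, 80.5 and 105 CPM with DMSO and at 40.6, 106, 46.8 and 47.4 CPM after bleomycin. Replicate 2 stood at the DMSO level and the other replicates well below it. The log2 fold change was -0.67 (95% interval -1.46 to 0.11, adjusted p = 0.195), and without bleomycin replicate 2 it was -1.09 (adjusted p = 0.0377). TAGLN was at 1327, 589, 835 and 719 CPM with DMSO and at 461, 948, 531 and 336 CPM after bleomycin, and CNN1 at 121, 59.7, 77.4 and 82.2 CPM and then at 60.8, 100, 65.6 and 30.1 CPM. In both genes DMSO replicate 1 and bleomycin replicate 2 stood highest in their groups. The log2 fold changes were -0.63 (95% interval -1.63 to 0.37) for TAGLN and -0.43 (-1.40 to 0.53) for CNN1.

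The more widely expressed genes changed little after bleomycin, within wide limits. MYL9 had a log2 fold change of -0.39 (95% interval -1.10 to 0.33), TPM1 of -0.04 (-0.56 to 0.47), TPM2 of 0.10 (-0.63 to 0.83) and CALD1 of -0.26 (-0.94 to 0.43). TPM1 averaged 440 ± 41.4 CPM with DMSO and 437 ± 101 CPM after bleomycin (SD, n = 4 each).

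The bleomycin libraries differed by replicate number, in all 3 shRNA groups alike. Replicate 2 was the highest of 4 with each of the 3 shRNAs for 7 of the 10 genes, all but MYH11, TPM1 and CALD1. Replicate 4 was the lowest with each shRNA for ACTG2, TAGLN, CNN1 and MYL9. With COPB2 shRNA 1, for example, TAGLN was at 414, 743, 579 and 118 CPM in replicates 1 to 4. Replicate 4 also stood apart by inflammatory cytokines: IL6 was at 187, 967 and 503 CPM there (control, shRNA 1 and shRNA 2) and at 7.36 to 44 CPM in the other 9 bleomycin libraries, and CXCL8 at 1145, 8645 and 4267 CPM against 37.0 to 219 CPM. The part of this in the contractile genes was not tested. Without replicate 2 of the 3 bleomycin groups, 5 genes were called lower with the control shRNA (ACTA2, ACTG2, TAGLN, MYH11 and LMOD1), and without replicate 4 of all 6 IMR90 groups only MYH11 was.

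Whether the 2 senescence models differed was tested as the difference of both changes in a fit of all 42 libraries, over 15299 genes. The change was more negative in OIS than after bleomycin for 4 of the 10 genes: LMOD1, CNN1, MYH11 and TAGLN. Of all genes tested, 20.3% were called in either direction and 12.1% were called lower. The difference of log2 fold changes was -5.61 for LMOD1 (SE 0.57, edgeR adjusted p = 7.28e-09), -2.85 for CNN1 (SE 0.67, adjusted p = 0.00189), -2.79 for MYH11 (SE 0.65, adjusted p = 0.00197) and -2.41 for TAGLN (SE 0.73, adjusted p = 0.0159). The TAGLN value was -2.05 with an adjusted p = 0.0553 without replicate 3 of the 4OHT libraries. ACTG2 (-1.43, 95% interval -2.63 to -0.23, adjusted p = 0.0862) was not called, but was without replicate 1 of the 4OHT libraries (-1.88, adjusted p = 0.0317) or replicate 1 of the IMR90 DMSO libraries (-1.74, adjusted p = 0.0385). ACTA2 differed by -0.30 (95% interval -1.20 to 0.61). Each model was made in its own cell line, so the inducer and the line cannot be told apart. The lines with DMSO and the control shRNA differed in 0.346% of all genes and in 0 of the 10. At an unadjusted p-value under 0.05 MYH11 alone differed, with a log2 difference of -0.98 in ER:RAS cells (adjusted p = 0.299).

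Both COPB2 shRNAs lowered their target, by 2.11 to 2.93 on the log2 scale. None of the 10 contractile genes was called with either COPB2 shRNA, or with the mean of both, in any of the 4 cell states. That was 0 by edgeR and 0 by DESeq2, and at an unadjusted p-value under 0.05 the count per comparison was 0 or 1, always MYH11. In the edgeR fits without a replicate block, few genes of any kind were called. For shRNA 1, shRNA 2 and their mean, the share of all genes called was 0.00699%, 0.00699% and 0.014% in ER:RAS cells with DMSO and 0.14%, 0.224% and 0.266% in cells undergoing OIS. In IMR90 cells it was 0.00676% in all 3 comparisons with DMSO and 0.00676%, 0.0744% and 0.0474% after bleomycin. With the replicate number as a block within each treatment, which fitted these bleomycin libraries because the same-numbered libraries deviated together, shRNA 2 changed 662 genes (4.48%) after bleomycin, still with 0 of the 10.

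The 95% intervals of the change with COPB2 depletion came from fits without a replicate block. They leave out the pairing seen between same-numbered IMR90 libraries, and each covers a single gene. In cells undergoing OIS the log2 change with the mean of both shRNAs ran from -0.79 for TPM2 (95% interval -1.69 to 0.11) to 0.11 for LMOD1 (-0.35 to 0.57) over the 9 genes other than MYH11. The intervals of these 9 genes together reached from -1.69 to 0.92. ACTA2 was at 324, 254 and 156 CPM with the control shRNA, at 208, 239 and 124 CPM with shRNA 1 and at 176, 210 and 120 CPM with shRNA 2. The 3 groups overlapped, and the mean change was -0.46 (95% interval -0.94 to 0.02). After bleomycin the values ran from -0.53 for LMOD1 (95% interval -1.20 to 0.14) to 0.15 for TPM2 (-0.49 to 0.79), and the 9 intervals together from -1.20 to 0.81. The median of the 9 was -0.26 in uninduced ER:RAS cells, -0.28 during OIS, -0.18 in DMSO-treated IMR90 cells and -0.08 after bleomycin, beside medians over all genes of -0.0019, -0.0756, -0.0102 and 0.0163. The knockdown comparisons of a cell state share their control libraries. MYH11 in OIS had 4, 2 and 0 counts with the control shRNA, 2, 0 and 2 counts with shRNA 1 and 0 counts in all 3 libraries with shRNA 2, too few for a fold.

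Senescence was also compared with DMSO within each COPB2 shRNA. In OIS the genes called were the 6 called with the control shRNA, with either COPB2 shRNA, beside 36.9% of all genes called (21.5% lower) with shRNA 1 and 36.9% (22% lower) with shRNA 2. LMOD1 was at 1.41, 1.42 and 1.12 CPM with 4OHT and shRNA 1, and at 0.991, 1.28 and 0.715 CPM with shRNA 2. All 6 libraries lay far below the DMSO libraries, although 2 with shRNA 1 were above every 4OHT library with the control shRNA. MYH11 had 0 counts in all 3 libraries with 4OHT and shRNA 2, at least 7.44-fold lower than with DMSO, against a floor of 3 counts per library that covers counting error only. The other log2 fold changes with shRNA 1 and shRNA 2 were -3.30 and -3.46 for CNN1, -3.24 and -3.37 for TAGLN, -2.48 and -2.58 for ACTG2, and -1.31 and -1.59 for ACTA2.

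After bleomycin, ACTA2, ACTG2 and LMOD1 were called lower with shRNA 1, beside 35.2% of all genes called (17.8% lower). With shRNA 2 these were ACTA2, MYH11 and LMOD1, beside 40% called (18.3% lower). In neither case was the share of the 10 genes called above that of all genes called. LMOD1 was at 34, 82.6, 49.6 and 13.4 CPM with bleomycin and shRNA 1, and at 29.4, 68.2, 29.7 and 27.1 CPM with shRNA 2. Again replicate 2 was the highest. The log2 fold changes of LMOD1 were -1.14 (adjusted p = 0.0241) and -1.33 (adjusted p = 0.0087), beside -0.67 with the control shRNA. The call with shRNA 2 held in each of 18 alternatives, as did that of MYH11 (-1.28, adjusted p = 0.000435), whereas the 3 calls with shRNA 1 fell to 0 without replicate 4 of the bleomycin libraries with shRNA 1, and also without bleomycin replicate 1 or DMSO replicate 1 or 4. Without replicate 3 of either group 1 call was left, that of LMOD1. The ACTA2 call with shRNA 2 (-0.78, adjusted p = 0.0380) was lost without replicate 1, 3 or 4 of either group, with adjusted p-values of 0.0717 to 0.146. The difference between the senescence change with a COPB2 shRNA and with the control shRNA was called for 0 of the 10 genes in each of 4 tests, beside 0% of all genes. At an unadjusted p-value under 0.05 it was MYH11 alone in 2 of these tests, and DESeq2 called 0 of the 10 as well. For LMOD1 after bleomycin that difference was -0.46 with shRNA 1 (95% interval -1.57 to 0.65) and -0.65 with shRNA 2 (-1.76 to 0.46).

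Other genes of the pathway were described from fixed lists, in OIS and after bleomycin with the control shRNA. Their counts stand beside 35.7% of all genes called in OIS (20.2% lower) and 31.2% after bleomycin (15.8% lower). With DESeq2 size factors the median of each list and each gene named here kept its direction, and of these genes only MRTFA lost its call. Of SRF and its 3 cofactors, 1 of 4 fell in each model. MRTFB fell after bleomycin (22 to 13.4 CPM, log2 fold change -0.76, adjusted p = 0.0353). MRTFA fell in OIS (62.6 to 37.9 CPM, -0.81, adjusted p = 0.0486), with an adjusted p = 0.140 under DESeq2 size factors. SRF itself had log2 fold changes of -0.17 and 0.01, and MYOCD of 0.78 and 0.12, none of them called. The other actins were not called either. ACTB had log2 fold changes of 0.38 in OIS and -0.05 after bleomycin, ACTG1 of 0.63 and -0.42, ACTC1 was tested only in IMR90 cells (-0.15), and ACTA1 was too low to test.

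Paralogues of the contractile genes moved both ways. In OIS 6 of 14 tested rose and 4 fell (median log2 fold change 0.55), and after bleomycin 5 rose and 3 fell (median -0.22). TAGLN3, a neuronal form of transgelin, rose from 1.38 to 332 CPM in OIS (log2 fold change 7.82, adjusted p = 7.51e-09) and TAGLN2 from 382 to 1334 CPM (1.70, adjusted p = 0.00515), while TAGLN fell. The non-muscle myosin heavy chain MYH10 fell in both models, from 191 to 27.6 CPM in OIS (-2.88) and from 293 to 84.8 CPM after bleomycin (-1.82). CNN2 also fell in both (-1.70 and -0.90). After bleomycin TPM4 fell (-0.66) and the light chain MYL12A rose (0.59).

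Of genes that regulate contraction or anchor filaments, 1 of 26 rose and 8 fell in OIS (median -0.42), a share of calls near that of all genes (35.7%). After bleomycin 2 rose and 3 fell (median -0.13), beside 31.2% of all genes called. PGM5, found at filament attachment sites, fell from 24.6 to 1.30 CPM in OIS (-4.32), NEXN from 99.9 to 14.8 CPM (-2.87) and PPP1R12B, a myosin phosphatase subunit, from 22 to 2.90 CPM (-2.99). PPP1R12B (-0.95) and the myosin light chain kinase MYLK (-0.80) fell after bleomycin, where SMTN rose (1.04). SMTN was also the 1 gene of this list that rose in OIS, from 70.0 to 329 CPM (2.13). The intermediate filament gene DES went from 14.8 to 0.141 CPM in OIS and from 27.2 to 1.28 CPM after bleomycin.

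Of 15 SRF and MRTF targets outside the contractile apparatus, 8 fell and 5 rose in OIS (median -0.78), and 3 fell and 3 rose after bleomycin (median -0.12). FHL2 (-2.06), CCN2 (-1.79) and FHL1 (-1.76) fell in OIS and FOS rose (1.91). FHL1 (-1.18) and TGFB1I1 (-0.92) fell after bleomycin, while ANKRD1 rose from 0.47 to 7.07 CPM (3.88) and CRIM1 rose (0.74). Of 27 genes of the TGF-beta response and myofibroblast matrix, 12 fell and 7 rose in OIS (median -0.80), and 11 fell and 5 rose after bleomycin (median -0.53). The collagen COL3A1 fell in both (-4.79 and -2.32), COL1A2 fell in OIS (-3.26) and COL5A1 after bleomycin (-1.70). Elastin (ELN) went from 5.45 to 0.0902 CPM in OIS and fell from 14.3 to 0.642 CPM after bleomycin (-4.52).

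**Figure D2:**
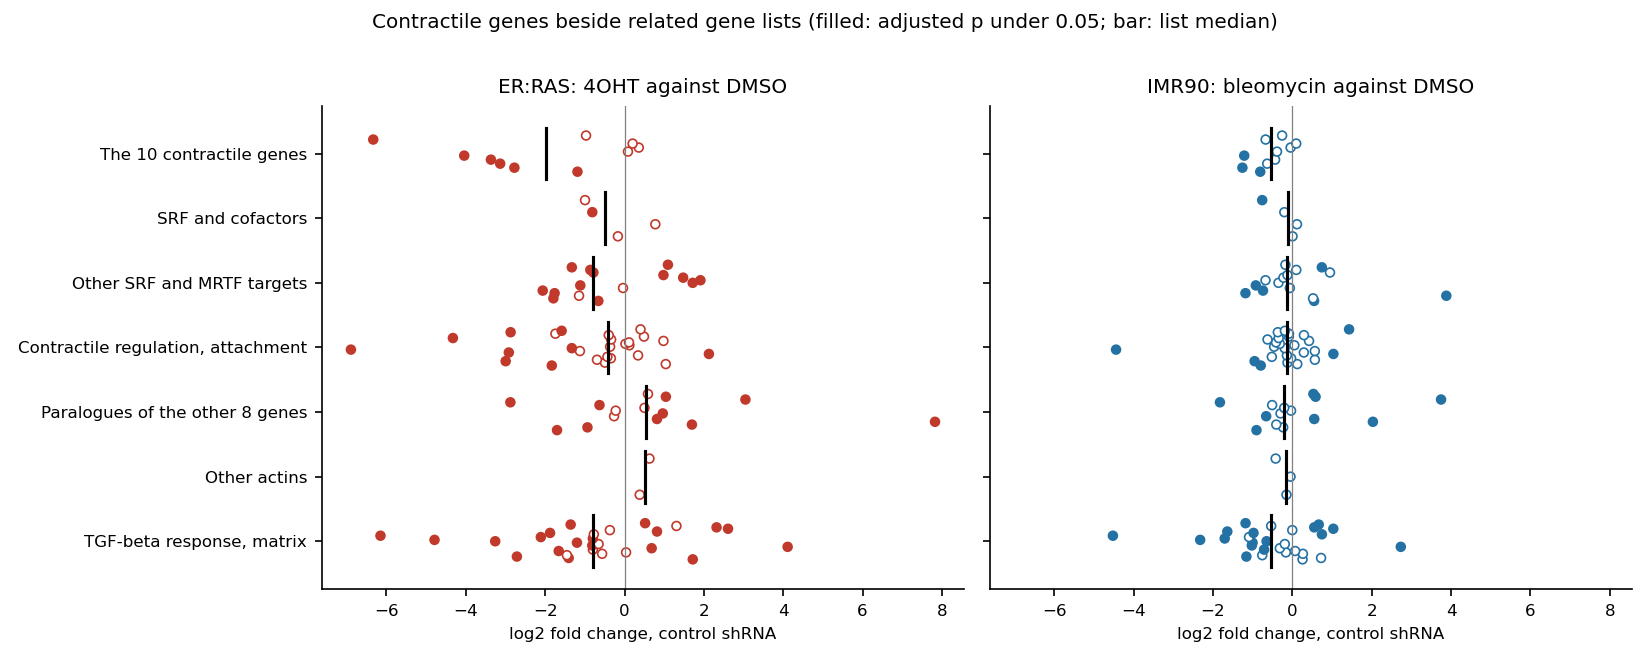
Log2 fold changes of the members of each list (points) in OIS and after bleomycin with the control shRNA, with the median of each list (bars) beside the 10 contractile genes. The median of the contractile genes is -1.98 in OIS and -0.53 after bleomycin, and TAGLN3 stands highest among the paralogues in OIS at 7.82.

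The 10 genes did not share a single pattern over the 12 groups. Pearson's r between a gene's group means (log2 CPM) and the mean of the other 9 was 0.991 for CNN1, 0.986 for TAGLN, 0.944 for LMOD1, 0.924 for ACTG2, 0.911 for MYH11, 0.814 for ACTA2 and 0.747 for CALD1, but -0.159 for TPM2, -0.319 for MYL9 and -0.635 for TPM1. The 12 means come from 2 cell lines and share libraries' treatment, so the values are descriptive. Of 10488 other genes, those whose group means were most like the mean of the 10 were CLDN11 (r = 0.994), ANKRD35 (0.994), TMEM35A (0.994), RARRES1 (0.993) and CSDC2 (0.993). Within the 6 groups of each cell line, r was 0.994 to 0.998 for ER:RAS cells and 0.935 to 0.988 for IMR90 cells. These genes were picked for the highest r over the same means, so high values within a line were built in. CLDN11, a claudin, was at 298 CPM with DMSO and 21.4 CPM in OIS with the control shRNA, and at 287 and 147 CPM in the bleomycin experiment. CSDC2 was at 67.9 and 2.21 CPM, and then at 70.3 and 24.7 CPM.

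Positions on GRCh38.p14 (RefSeq) place the genes on 10 different chromosomes, so no pair are neighbours. ACTA2 lies at chr10:88935074-88991337 on the minus strand, where ACTA2-AS1 and FAS overlap it. TAGLN lies at chr11:117199294-117207465 on the plus strand and overlaps PCSK7 and LOC100652768. Of its 75-base transcript windows, 65.3% also occur in another annotated gene, ENSG00000280143, so its counts are the least certain of the 10. MYH11 lies at chr16:15703135-15857028 on the minus strand, overlapping NDE1 and 2 further genes, and shares 0.31% of its windows with MYH9. MYL9 (chr20:36541519-36551447) overlaps DLGAP4-AS1, TPM1 (chr15:63042747-63071915) overlaps TPM1-AS, and CALD1 (chr7:134711499-134970729) overlaps 2 genes. ACTG2 (chr2:73893008-73919865), CNN1 (chr19:11538851-11550323), TPM2 (chr9:35681993-35690056) and LMOD1 (chr1:201896456-201946548) overlap none. The strand setting of the counting is not given in the sources used here, so reads of overlapping genes on opposite strands may not have been told apart.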

How the data were processed

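Poly(A) RNA from 42 libraries was sequenced, and the authors deposited 1 table of raw, unnormalized read counts by gene symbol. The study's methods describe directional single-end reads aligned with Tophat to hg19. The submitters' processing notes name hg38, DRAGEN, STAR 2.7.8a and DESeq2 1.32.0 instead, so the build is uncertain, and the table holds no coordinates. Positions and promoters came from RefSeq (GRCh38.p14). No column of another sample was present (0 unused).

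Groups came from the labels. Low counts were filtered with filterByExpr and TMM factors scaled the libraries. Groups were compared by edgeR 4.0.16 (quasi-likelihood, robust and two-sided, in R 4.3.3), with the 6 groups of a cell line in a single fit. All 10 genes passed the filter in each fit. A fit of all 42 libraries compared both models and both lines. P-values were adjusted by Benjamini-Hochberg across every gene of a fit, with a threshold of 0.05, over 24 contrasts that share libraries. Log2 values of single libraries carry a prior count of 2. The floor for bounds was 3 counts. Depth was 13148194 to 23597310 counts. Because reads lack molecular identifiers, the floor reflects counting error alone. The scripts were tested on simulated data, and no pair of replicates of the same group agreed within sampling noise. Libraries of different groups were not compared in this way.

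The 10 genes and the lists were chosen with earlier results of these data known. Named besides the 10 genes and COPB2 are SRF, its cofactors and the other actins, from each list the up to 4 called genes with the largest change in each model (their higher group averaging 100 counts or more), and the 5 genes most like the 10. A gene that this rule names is not reported here. IL6, CXCL8 and the library slopes were added after seeing the data. Same-numbered libraries deviated together (every correlation over 0.1) for the COPB2 comparisons in IMR90 cells (0.106 to 0.787 with DMSO, 0.403 to 0.755 after bleomycin) and for OIS with shRNA 1 (0.414 to 0.758) and shRNA 2 (0.480 to 0.769), which was taken as pairing from the data and not from the labels.

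Alternatives were DESeq2 size factors, no filter, DESeq2 1.42.0, all libraries in 1 fit, only the groups compared, a block for the replicate number, an absolute log2 change of 1 or more, and fits without each library or without replicate 4 of all IMR90 groups. A correction for GC content and transcript length (known for 95.9% of 15299 genes), the block within each treatment, DESeq2 size factors for the lists, and leaving out replicate 2 or replicate 4 of the bleomycin groups were chosen after seeing the data.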

Additional observations from a re-analysis of the deposited data

Results flagged for a closer look

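Of 60 sets of 4 IMR90 libraries (10 genes in 6 groups), 7 had a library apart from the rest by Dixon's test at the 95% level, where chance gives about 1 set in 20. The 10 genes of a group come from the same 4 libraries, so the sets are not independent. The 7 can therefore not be weighed against that share. In 6 of the 7 that library was bleomycin replicate 2. With the control shRNA it held 351 CPM of ACTA2 (others 190 to 203), 2573 CPM of TPM2 (others 1426 to 1611) and 106 CPM of LMOD1 (others 40.6 to 47.4). With COPB2 shRNA 2 it held 1544 CPM of TAGLN (others 263 to 432), 5938 CPM of TPM2 (others 1313 to 1649) and 68.2 CPM of LMOD1 (others 27.1 to 29.7). The remaining case was CALD1 in bleomycin replicate 3 with COPB2 shRNA 1, at 917 CPM (others 453 to 512).

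The change in OIS differed from that after bleomycin, in the test of the difference itself, for TAGLN (-2.41 on the log2 scale), CNN1 (-2.85), MYH11 (-2.79) and LMOD1 (-5.61). Inducer and cell line cannot be told apart in this difference.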

How the results depend on the processing

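The 6 calls in OIS kept their direction and stayed under the threshold with each of the 3 shRNAs in all 13 alternatives. Over all genes, the median log2 change in OIS moved from -0.0789 to 0.0448 with DESeq2 size factors, and the share of calls that were lower from 56.6% to 50.7%. In every alternative 0 of the 10 genes were called with COPB2 depletion, in its interactions with senescence and between the cell lines. The count of members called after bleomycin did move. With shRNA 1 it was 1 with DESeq2 size factors and 0 without replicate 4 of all 6 IMR90 groups or of the 3 bleomycin groups. With the control shRNA it was 1 without replicate 4 of all 6 groups. Without replicate 2 of the 3 bleomycin groups it was 5, 5 and 6 (control, shRNA 1, shRNA 2). With the replicate block it was 5 with shRNA 2, where the numbers did not pair the libraries, and the replicate block moved no other count of these genes by over 1.5 times. Leaving out single libraries (56 refits) gave 1 to 4 genes with the control shRNA, 0 to 3 with shRNA 1, 2 to 4 with shRNA 2, and 3 to 5 for the difference between models, and moved no other count. Values that turned direction were all of genes not called. In OIS, MYL9 was at -0.0022 with the replicate block and -0.071 with the GC and length correction, and TPM2 at -0.077 and -0.36. Without single libraries they ran from -0.29 to 0.45 and from -0.70 to 0.65, the lowest without replicate 1 of the 4OHT libraries. After bleomycin, TPM1 was at 0.040 without replicate 4 of all 6 IMR90 groups, 0.058 without replicate 4 of the 3 bleomycin groups, and -0.20 to 0.074 without single libraries, above 0 without bleomycin replicate 1 (0.074), bleomycin replicate 4 (0.056) or DMSO replicate 3 (0.041). TPM2 was at -0.15 without replicate 2 of the 3 bleomycin groups, and at -0.13 (without replicate 2 of the control group) to 0.23 without single libraries. The difference between models for TPM2 was -0.27 with the GC and length correction and -0.78 (without replicate 1 of the 4OHT libraries) to 0.60 without single libraries. With that correction CALD1 in OIS was at -0.79 with an adjusted p = 0.0524. The cause was not tested. Of 240 mean levels, 6 moved by more than 1 SD under another scaling. With 3 or 4 libraries a group, changes of the widely spread genes could only be bounded.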
